A study of Mus musculus with 10 samples.

Results

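Synaptotagmins and rabphilin are membrane and vesicle proteins with tandem C2 domains that act in the release of hormone granules. The genes described here were picked by symbol and are Syt1, Syt4, Syt5, Syt7, Syt9, Syt11, Syt13, Syt14, Syt16 and Rph3a, which make 10 of the 47340 genes in the deposited table, each listed in a single row. RNASeq was performed on isolated islets of 5 floxed control (FL) and 5 βFIT2KO (KO) mice, with 1 library per mouse. All mice were male, fed chow and 12 wk old, and all carried a FIT2 gene (Fitm2) flanked by loxP sites. KO mice also expressed Cre recombinase from the rat insulin promoter, so that the deletion is aimed at insulin-producing β cells. The sample labels call the FL mice wild type. No library comes from mice with Cre and a working Fitm2 gene, so the loss of Fitm2 and the presence of Cre cannot be told apart. Islets recovered overnight in culture before RNA was made. Levels are given as FPKM, reads scaled for gene length and for library size, which can be compared between genes of different length.

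When a β cell is stimulated, calcium enters through voltage-gated channels and insulin granules fuse with the plasma membrane. Synaptotagmins sit in the granule or plasma membrane and carry their C2 domains towards the cytosol. In some of them (Syt1, Syt5, Syt7 and Syt9) the C2 domains bind calcium and phospholipid and couple calcium entry to fusion by the SNARE proteins. In others (Syt4, Syt11, Syt13, Syt14 and Syt16) they bind little or no calcium. Rabphilin, encoded by Rph3a, is not anchored by a membrane-spanning segment. It is recruited to vesicles by the small GTPases Rab3 and Rab27 and also holds tandem C2 domains.

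The libraries were first checked as a whole. Fitm2 was listed at 15.5 to 37.1 FPKM in FL and at 4.30 to 9.13 FPKM in KO libraries, without overlap. Library sums lay between 627084 and 675470 FPKM, and the relative depth, read from the size of the smallest steps between low values, ran from 1.00 to 2.41 in FL and from 1.51 to 2.05 in KO. In all, 13065 genes averaged 1 FPKM or more in either group and were tested by limma. Of these, 25.5% were called (adjusted p not above 0.05), 2150 as lower and 1183 as higher in KO. After rescaling the libraries by the median ratio this split was 1685 lower and 1544 higher. The defining β cell transcripts Ins1, Ins2 and Iapp and the α cell transcript Gcg were listed at 0 in all 10 libraries, so that the labelled tissue could not be checked against them, and a listed 0 may stand for a failed estimate. Of the other 7 β cell markers, 6 were lower in KO, and the summed level of the list ran from 2273 to 2844 FPKM in FL and from 1511 to 2124 FPKM in KO. Fewer cells of a type and less RNA per cell cannot be told apart in whole islets. Mesenchyme markers were higher in KO for 4 of 4 genes (sums of 10.9 to 18.3 FPKM in FL and 21.9 to 29.9 FPKM in KO), endothelial markers for 3 of 5, leukocyte markers for 1 of 4 tested (Cd68) and duct markers for 1 of 3 tested (Cftr, which passed the filter only through KO, the group in which it is high). At an unadjusted p under 0.05 from limma, 4 endothelial, 3 leukocyte and 2 duct markers were higher and 0 were lower. Sums of leukocyte markers were 94.6 to 108 FPKM in FL and 116 to 160 FPKM in KO, and those of endothelial and duct markers overlapped. Among the other endocrine lists, 1 of 5 α cell markers tested (Irx1) and 1 of 3 δ cell markers tested (Sst) were lower, with sums of 105 to 141 and 107 to 120 FPKM for α cells and of 4638 to 5481 and 3714 to 5018 FPKM for δ cells in FL and KO. Neuron and Schwann cell markers were higher for 0 of 4 tested by limma, with 0 lower and 0 at an unadjusted p under 0.05. Acinar markers of the exocrine pancreas were called in 0 of 5 genes by limma (0 at an unadjusted p under 0.05), but their sum was 18083 FPKM in KO mouse 5 and 2369 to 9694 FPKM in the other 9 libraries. The part of these cell types in the results below was not tested. The labels give each library a replicate number but no culture or pooling record, so p-values measure the spread between these libraries.

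Start-site sequences are shown for the members that were called in opposite directions and for Syt10, a synaptotagmin outside the listed members that was at or near 0 in FL, as was Rph3a. RefSeq windows of 300 bases on GRCm38.p6, from 250 bases before to 50 bases after a start site, were found for 6 of the 10 members (Syt1, Syt9, Syt11, Syt14, Syt16 and Rph3a). In each line the window is written 5′ to 3′ on the strand of the gene, and every CG, the dinucleotide that is the usual site of DNA methylation, is in capitals. Rph3a has 3 windows on the minus strand, at chr5:121010043-121010342, chr5:121009489-121009788 and chr5:121008435-121008734. Those of Syt14 (chr1:193035726-193036025) and Syt10 (chr15:89841811-89842110) are also on the minus strand, and that of Syt16 (chr12:73997527-73997826) is on the plus strand.
Rph3a, most upstream start: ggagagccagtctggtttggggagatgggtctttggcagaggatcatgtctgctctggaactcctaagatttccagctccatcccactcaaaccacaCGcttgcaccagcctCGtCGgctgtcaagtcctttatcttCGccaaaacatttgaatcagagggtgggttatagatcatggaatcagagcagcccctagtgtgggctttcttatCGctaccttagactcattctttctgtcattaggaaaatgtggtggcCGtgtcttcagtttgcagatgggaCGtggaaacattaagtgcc
Rph3a, middle start: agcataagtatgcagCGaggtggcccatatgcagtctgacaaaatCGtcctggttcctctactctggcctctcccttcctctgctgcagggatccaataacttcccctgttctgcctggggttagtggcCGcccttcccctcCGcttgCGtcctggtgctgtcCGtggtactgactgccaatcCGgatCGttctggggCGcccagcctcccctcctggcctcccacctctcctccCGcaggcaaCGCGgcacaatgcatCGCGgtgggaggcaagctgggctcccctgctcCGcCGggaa
Rph3a, most downstream start: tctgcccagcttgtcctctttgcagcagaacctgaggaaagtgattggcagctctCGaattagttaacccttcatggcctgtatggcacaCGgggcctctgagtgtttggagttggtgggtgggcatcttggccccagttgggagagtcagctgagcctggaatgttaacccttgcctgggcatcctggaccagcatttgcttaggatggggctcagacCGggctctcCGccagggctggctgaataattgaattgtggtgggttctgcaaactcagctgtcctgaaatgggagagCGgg
Syt14: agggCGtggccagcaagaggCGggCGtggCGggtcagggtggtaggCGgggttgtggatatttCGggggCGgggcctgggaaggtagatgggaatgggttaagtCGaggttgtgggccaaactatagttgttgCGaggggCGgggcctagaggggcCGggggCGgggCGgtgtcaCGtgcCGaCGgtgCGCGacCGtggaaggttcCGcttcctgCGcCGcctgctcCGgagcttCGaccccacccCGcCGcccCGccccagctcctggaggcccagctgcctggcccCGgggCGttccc
Syt16: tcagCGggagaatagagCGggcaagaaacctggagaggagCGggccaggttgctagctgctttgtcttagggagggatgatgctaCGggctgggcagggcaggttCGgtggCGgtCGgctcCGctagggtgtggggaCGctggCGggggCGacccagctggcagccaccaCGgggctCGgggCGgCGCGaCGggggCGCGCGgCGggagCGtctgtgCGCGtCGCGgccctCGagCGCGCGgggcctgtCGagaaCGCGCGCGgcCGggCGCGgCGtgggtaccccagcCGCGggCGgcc
Syt10: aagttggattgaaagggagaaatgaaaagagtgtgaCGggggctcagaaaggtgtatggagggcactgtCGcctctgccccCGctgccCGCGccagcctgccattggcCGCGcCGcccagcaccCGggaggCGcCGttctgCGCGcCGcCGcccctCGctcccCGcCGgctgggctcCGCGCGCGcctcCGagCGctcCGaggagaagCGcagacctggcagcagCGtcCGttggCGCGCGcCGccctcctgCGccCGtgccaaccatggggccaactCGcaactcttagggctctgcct

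The 3 Rph3a windows held 7, 16 and 5 CG, beside a median of 7 over all 32851 windows of the same length. The windows of Syt14, Syt16 and Syt10 held 29, 42 and 35 CG. CG on its own occurs in 94.6% of all windows. The GC box GGGCGG, which is read on both strands here and contains a CG, was found 6 times in Syt14, 2 times in Syt16, 3 times in Syt10 and once in the middle window of Rph3a, and occurs in 35.7% of all windows. Of the other members, Syt9 had 49 CG, Syt11 14 and the windows of Syt1 8 and 6. The letters TATAAA (in 13.6% of all windows) and TGACGTCA (in 1.79%), searched on both strands, were not found in any of these windows. The deposited table holds no measurement of methylation or factor binding, and these sequence features are descriptions.

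The level of the members in FL islets covered a wide range. Syt13 was the most abundant, at 324 ± 16.0 FPKM (SD, n = 5), and stood 4.19 times above Syt7. Syt4 (80.2 ± 8.95 FPKM) and Syt7 (77.2 ± 3.56 FPKM; SD, n = 5) followed and their libraries overlapped. Syt5 and Syt11 overlapped as well, at 34.6 ± 3.09 and 30.2 ± 2.33 FPKM (SD, n = 5), above Syt14 (19.1 ± 1.52 FPKM) and Syt9 (9.27 ± 0.575 FPKM; SD, n = 5). Syt1 and Syt16, near 1 FPKM, overlapped each other, and Rph3a was lowest. In KO islets the order was the same with 2 exceptions. Rph3a stood between Syt9 and Syt1, without overlap with either, and the mean of Syt11 was above that of Syt5, although the libraries of these genes overlapped.

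**Figure D1:**
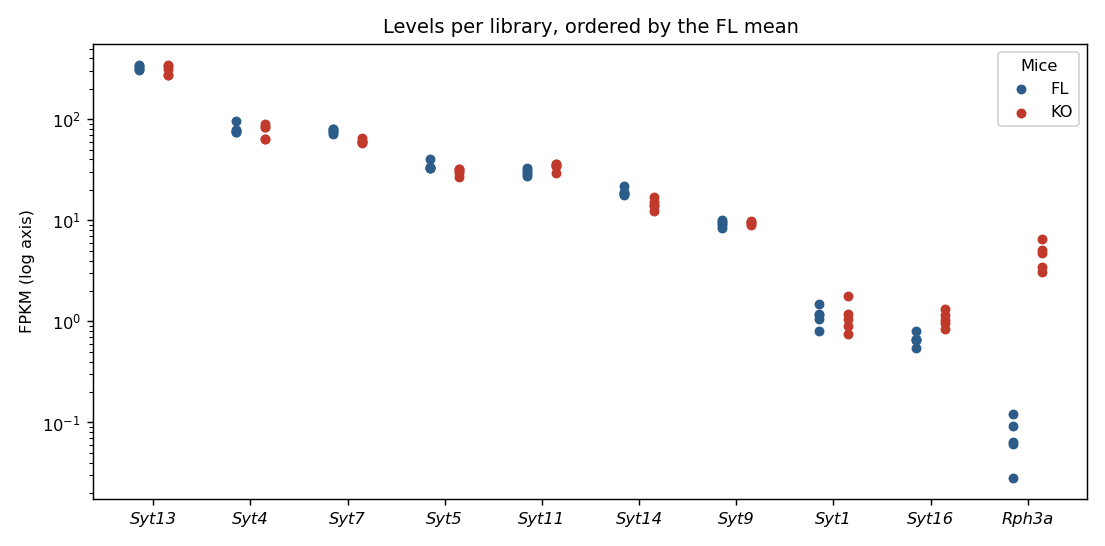
FPKM of each gene in each library (points) on a log axis, with genes ordered by their FL mean, FL in blue and KO in red. Syt13 is above all others in both groups, and Rph3a moves from the lowest place in FL, at 0.0281 to 0.123 FPKM, to 3.06 to 6.47 FPKM in KO.

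The spread between mice also differed among the members. Syt7 was the steadiest in FL, with an SD of 4.61% of the mean in FL and 3.84% in KO. Syt9 varied by 6.21% and 3.67%. Among the abundant genes Syt4 varied most, by 11.2% in FL and 16.4% in KO, and the scarce Syt1 varied by 21.3% and 34.8%. A difference of a given size was therefore resolved best for Syt7 and Syt9.

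KO and FL were then compared gene by gene. Of the 8 members that averaged 1 FPKM or more in both groups, 2 were called, Syt7 and Syt14, both as lower in KO. Among all genes tested 16.5% were called lower and 9.05% higher. Syt16 and Rph3a reached this level only in KO, which means that they entered the test through the group in which they are high, and they are described on their own. The median log2 fold change, KO against FL on the log2(FPKM + 1) scale, was −0.04 over the 10 members and −0.06 over all genes tested.

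**Figure D2:**
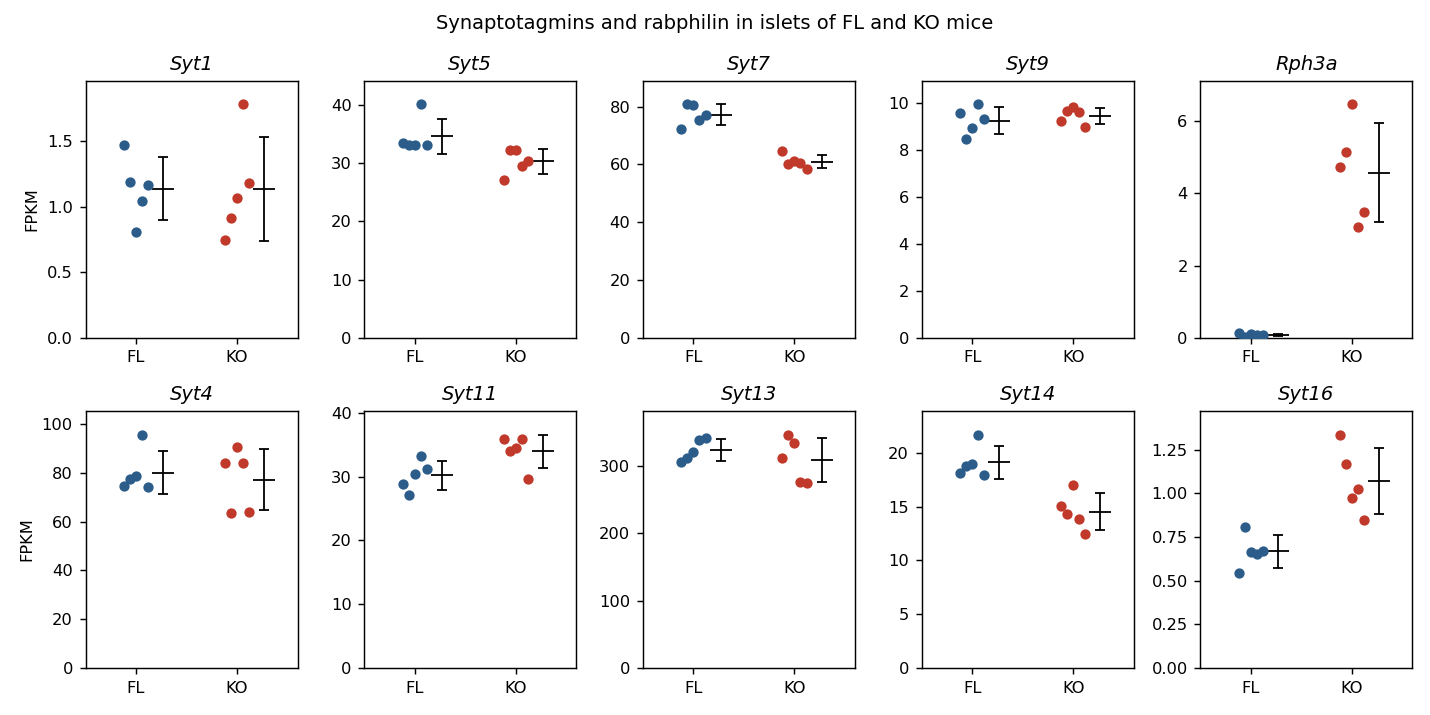
FPKM of each of the 10 genes in 5 FL (blue) and 5 KO (red) libraries, with the mean and SD as a black bar beside the points; each vertical axis starts at 0 and has its own range. The KO points lie below the FL points for Syt5, Syt7 and Syt14 and above them for Syt16 and Rph3a, and they overlap for the other genes. Among all genes tested, 12.5% had no overlap with KO lower and 6.67% had none with KO higher. Syt16 and Rph3a reached 1 FPKM only in KO, the group in which they are high.

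Among the calcium sensors, Syt7 encodes a high-affinity sensor that is a main driver of calcium-triggered insulin release. Its gene (ENSMUSG00000024743.14) lies on the plus strand of chromosome 19, from 10389090 to 10453180 in GENCODE M21 (GRCm38). For replicates 1 to 5, Syt7 was at 72.3, 80.7, 80.4, 75.4 and 77.3 FPKM in FL and at 64.7, 60.2, 61.2, 60.3 and 58.3 FPKM in KO. All KO values were lower than all FL values. The mean fell by 21.1% to 60.9 ± 2.34 FPKM (SD, n = 5). By limma the log2 fold change was −0.34 (SE 0.05, 95% interval −0.44 to −0.23) with an adjusted p = 0.000467. The call was kept in every alternative tried except a required change of 1.5-fold, which 4.89% of all tested genes met together with the adjusted p. An antisense gene, Gm26859, shares 384 exonic bases with Syt7 and did not exceed 0.0498 FPKM in any library. Syt7 is among the genes that the study singled out from these libraries, so its call is not independent evidence. The fall of Syt7 occurred in libraries in which 6 of the 7 β cell markers tested were lower too. The median log2 fold change of that list was −0.60, and G6pc2 was not called (−0.26, adjusted p = 0.136 from limma). The part of β cell RNA in the Syt7 values was not tested.

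Syt5 encodes another calcium sensor of secretory granules (ENSMUSG00000004961.7, chromosome 7, 4539765 to 4547541, minus strand). It was at 33.4, 33.1, 33.2, 40.1 and 33.1 FPKM in FL and at 27.1, 32.3, 32.2, 29.5 and 30.4 FPKM in KO. The groups did not overlap, as was the case for 19.1% of all tested genes (12.5% with KO lower, 6.67% with KO higher), but the highest KO value and the lowest FL value were 0.777 FPKM apart. The exact permutation test gave p = 0.00794 (two-sided, the smallest that 5 mice against 5 allow). With a log2 fold change of −0.18 (SE 0.07, 95% interval −0.33 to −0.03), Syt5 did not pass over all genes tested (adjusted p = 0.0726 from limma). The adjusted p of Syt5 ran from 0.0277, with sample weights and the only alternative in which it was called, to 0.174, after quantile normalization, and without FL mouse 4 the log2 fold change was −0.13 (adjusted p = 0.126, all from limma).

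Syt9 encodes a calcium sensor found on insulin granules (ENSMUSG00000062542.11, chromosome 7, 107370728 to 107548656, plus strand). It ranged from 8.48 to 9.96 FPKM in FL and from 8.98 to 9.83 FPKM in KO, with all KO libraries inside the FL range. Its log2 fold change was 0.03 with a 95% interval of −0.08 to 0.14 (adjusted p = 0.708 from limma). A fall as large as that of Syt7 is outside this interval, although the difference between the changes of these genes was not tested.

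Syt1, the sensor of fast transmitter release in neurons (ENSMUSG00000035864.14, chromosome 10, 108497650 to 109010982, minus strand), was scarce. It was at 1.47, 1.19, 0.807, 1.05 and 1.17 FPKM in FL and at 0.747, 0.910, 1.07, 1.78 and 1.18 FPKM in KO. Both means were 1.14 FPKM, and the wide 95% interval of the log2 fold change, −0.31 to 0.29, leaves its direction undetermined (adjusted p = 0.966 from limma). The highest Syt1 value, in KO mouse 4, came from the library with the highest levels of the neuronal genes Stmn2 (9.66 FPKM, against 0.327 to 8.16 FPKM in the others) and Prph (5.31 FPKM, against 0.310 to 4.82 FPKM). These genes of the neuron list were chosen after their values had been seen, and the part of neuronal RNA in the Syt1 values was not tested.

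Among the synaptotagmins that bind little or no calcium, Syt14 was called. Little is known of the role of its product in islets. Syt14 (ENSMUSG00000016200.13, chromosome 1, 192891233 to 193035775, minus strand) was at 18.1, 18.8, 19.0, 21.7 and 18.0 FPKM in FL and at 15.1, 14.3, 17.1, 13.8 and 12.5 FPKM in KO. The groups did not overlap. The mean fell by 23.9% to 14.6 ± 1.70 FPKM (SD, n = 5). By limma the log2 fold change was −0.37 (SE 0.08, 95% interval −0.55 to −0.20) with an adjusted p = 0.00629. The fall of Syt14 and that of Syt7 had overlapping intervals. As with Syt7, the call held in every alternative except the required 1.5-fold change, with log2 fold changes from −0.43 to −0.32.

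Syt13 encodes a synaptotagmin that takes part in the formation of islets from endocrine precursors. It is a gene with a single annotated transcript (ENSMUSG00000027220.2, chromosome 2, 92915098 to 92956058, plus strand). Its level was 306, 311, 320, 338 and 342 FPKM in FL and 312, 347, 335, 276 and 275 FPKM in KO. KO mice 4 and 5 were below all FL mice, KO mouse 2 was above all of them, and the other KO mice were within the FL range. The log2 fold change of −0.07 (95% interval −0.23 to 0.09) did not pass (adjusted p = 0.512 from limma), nor did it without KO mouse 5, the library highest in acinar markers (log2 fold change −0.03, adjusted p = 0.792).

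Syt4, which lowers the calcium sensitivity of insulin secretion as β cells mature, was similar in level to Syt7 in FL. The gene is ENSMUSG00000024261.5 (chromosome 18, 31437808 to 31447406, minus strand). Its level was 74.6, 77.6, 79.0, 95.8 and 74.1 FPKM in FL and 84.1, 63.7, 90.6, 84.3 and 63.8 FPKM in KO. KO mice 2 and 5 were below all FL mice and the other KO mice were within the FL range. The log2 fold change of −0.06 (95% interval −0.31 to 0.19, adjusted p = 0.725 from limma) changed sign without FL mouse 4, KO mouse 2 or KO mouse 5, where it was between 0.0020 and 0.0030. KO mouse 5 is the library highest in acinar markers and KO mouse 2 is the lowest (sums of 18083 and 2369 FPKM). The part of acinar RNA in the Syt4 values was not tested. An antisense gene, Gm26658, shares 566 exonic bases with Syt4 and was at most 0.0122 FPKM.

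Syt11, linked to vesicle recycling and membrane repair (ENSMUSG00000068923.14, chromosome 3, 88744700 to 88775164, minus strand), was at 28.9, 27.2, 30.4, 33.3 and 31.2 FPKM in FL and at 35.9, 34.1, 34.5, 36.0 and 29.6 FPKM in KO. In 4 KO libraries it was above every FL library, and KO mouse 5 was within the FL range. The log2 fold change of 0.17 (95% interval 0.02 to 0.32) did not pass over all genes tested (adjusted p = 0.0979 from limma), with p = 0.0476 in the exact permutation test (two-sided). It was called after each of the 4 ways of rescaling (log2 fold changes of 0.21 to 0.23), with sample weights and without KO mouse 5 (adjusted p = 0.0291 from limma), so that whether Syt11 is called depends on how the libraries are scaled and on KO mouse 5. That mouse had the lowest Syt11 level of the KO group and the highest acinar marker sum of all libraries, and the part of acinar RNA in the Syt11 values was not tested.

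**Figure D3:**
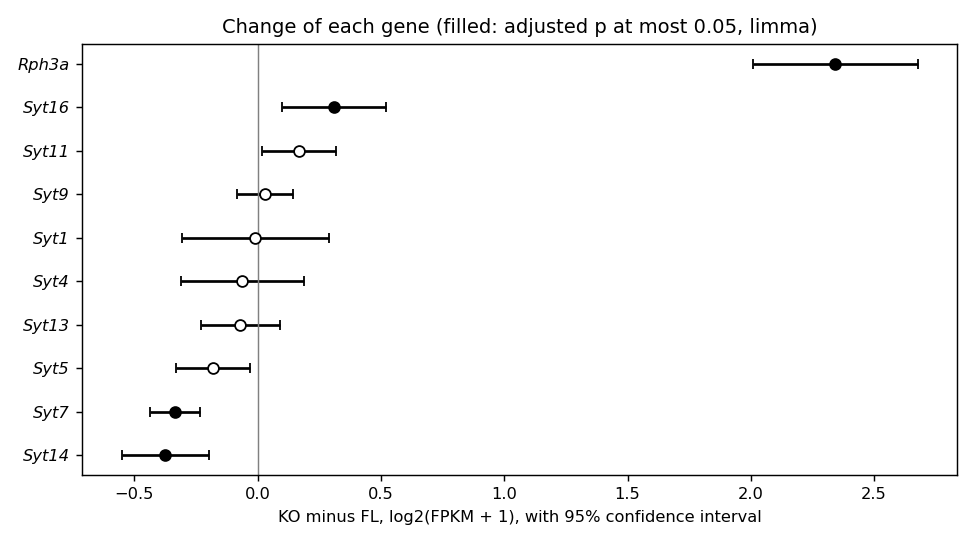
Log2 fold change of each gene, KO against FL, on the log2(FPKM + 1) scale (points) with its 95% confidence interval (bars), sorted by size; filled points are genes called by limma (adjusted p not above 0.05). Syt7 and Syt14 lie below 0 and Syt16 and Rph3a above it, and the intervals of Syt1, Syt4, Syt9 and Syt13 include 0.

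Syt16 encodes a synaptotagmin relative whose function is little studied (ENSMUSG00000044912.9, chromosome 12, 73997661 to 74273267, plus strand). It was at 0.542, 0.809, 0.662, 0.650 and 0.668 FPKM in FL and at 1.34, 1.17, 0.974, 1.03 and 0.849 FPKM in KO. The groups did not overlap, with FL mouse 2 close to KO mouse 5, and the ratio of the means was 1.61. On the steps of low values these levels correspond to about 102 to 302 reads in FL and 277 to 413 in KO libraries. By limma Syt16 had a log2 fold change of 0.31 (SE 0.10) with an adjusted p = 0.0360, and in the fit without a filter on low FPKM its adjusted p was 0.0180. The call was lost in 7 of the 10 fits that left out 1 mouse, those without FL mouse 1, 3, 4 or 5 or KO mouse 1, 2 or 4. In those fits the adjusted p was 0.0613 to 0.0900 (from limma), while the log2 fold change, at 0.27 to 0.32, stayed close to 0.31. The call was lost after quantile normalization as well (adjusted p = 0.201 from limma). The size of the change rests on the pseudocount, and the log2 fold change was 0.61 with a pseudocount of 0.1 and 0.67 with 0.01 (adjusted p = 0.0310 and 0.0177 from limma). The antisense gene Gm29587, which shares 183 exonic bases with Syt16, was listed at 0 in every library.

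Rph3a, which encodes rabphilin, differed most (ENSMUSG00000029608.10, chromosome 5, 120940499 to 121010092, minus strand). It was at 0.123, 0.0281, 0.0927, 0.0618 and 0.0644 FPKM in FL and at 4.74, 5.14, 6.47, 3.06 and 3.48 FPKM in KO. The lowest KO library was far above the highest FL library. The ratio of the means, 4.58 ± 1.36 in KO against 0.0739 ± 0.0356 in FL (SD, n = 5), was 61.9. By limma its log2 fold change was 2.34 (SE 0.15) with an adjusted p = 1.76e-06, or 1.22e-05 without a filter. This value is on the log2(FPKM + 1) scale and understates the ratio. With a pseudocount of 0.01 it was 5.84. In FL libraries the level of Rph3a corresponds to 4.05 to 14.4 reads and in KO libraries to 471 to 912 reads. Summed over the mice this is about 51 reads in FL and 3669 in KO, a depth-adjusted ratio of 66.2 (95% exact interval 50.2 to 89.0, for counting error only). Rph3a was thus above 0 in every FL library, but at a level where a handful of reads sets the value. Rph3a is also among the genes that the study singled out from these libraries. Which islet cells contain the transcript was not tested.

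**Figure D4:**
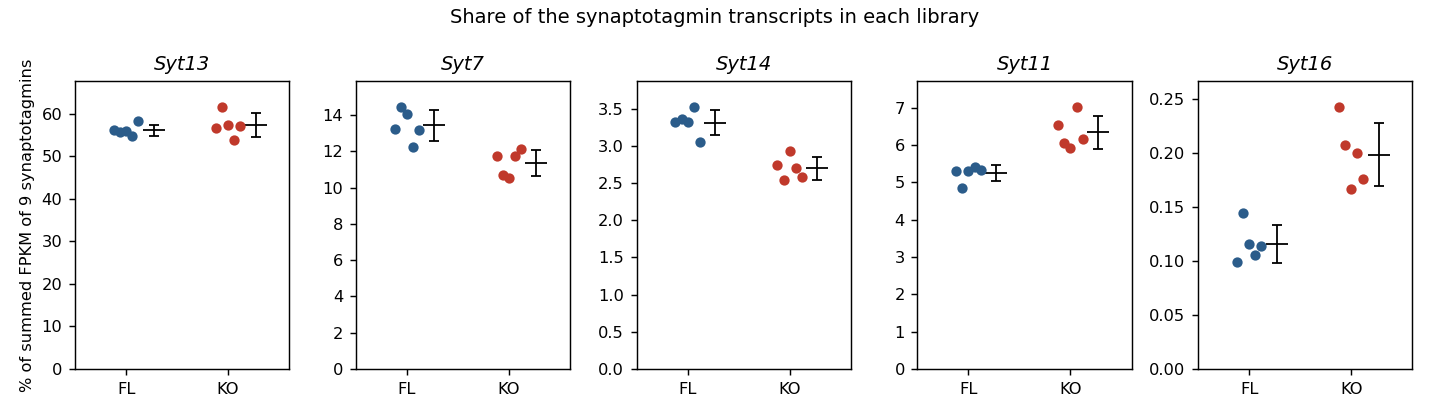
Share of 5 synaptotagmins in the summed FPKM of the 9 synaptotagmin members, in percent, per library (FL blue, KO red), with the mean and SD as a black bar. The shares of Syt7 and Syt14 are lower and those of Syt11 and Syt16 higher in KO without overlap, and the share of Syt13 overlaps between the groups. The shares of Syt1, Syt4, Syt5 and Syt9, which are not shown, overlap as well.

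Because a share within a library does not depend on how libraries are scaled against each other, the members were also expressed as a percentage of the summed FPKM of the 9 synaptotagmins. The sum itself went from 576 ± 27.4 in FL to 538 ± 40.7 FPKM in KO (SD, n = 5), with overlapping libraries. Syt13 made up 56.2% of it in FL and 57.4% in KO. The share of Syt7 was 12.2% to 14.4% in FL and 10.5% to 12.1% in KO, and that of Syt14 was 3.06% to 3.52% in FL and 2.54% to 2.93% in KO. The share of Syt11 ran the other way, from 4.86% to 5.40% in FL and from 5.93% to 7.01% in KO. None of these 3 shares overlapped between the groups, but for Syt7 the lowest FL share (12.23%, mouse 4) was close to the highest KO share (12.13%, mouse 5). The share of Syt16 did not overlap either, and those of Syt1, Syt4, Syt9 and Syt13 did. The share of Syt5, whose FPKM did not overlap, overlapped as well, at 5.64% to 6.51% in FL and 4.93% to 6.33% in KO. How often such shares separate among other genes was not examined. A share shows unequal change among the genes and not which gene changed. The ratio of Syt11 to Syt5, chosen after its values had been seen and therefore given without a test, was 0.822 to 0.943 in FL and 0.973 to 1.32 in KO. Syt5 was above Syt11 in 5 of 5 FL libraries, and Syt11 was above Syt5 in 4 of 5 KO libraries.

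Genes of the same family were taken from a list of the other 8 synaptotagmins, of which 5 reached 1 FPKM in a group. Syt10 and Syt12 were called as higher in KO, beside 9.05% of all genes tested, and Syt2, Syt3 and Syt17 were not called. Syt10, a calcium sensor for the release of growth factor vesicles in neurons, was listed at 0 in 4 of 5 FL libraries and at 0.0155 FPKM, the value of 1.00 read, in FL mouse 3. In KO libraries Syt10 was at 2.61, 2.33, 2.75, 2.05 and 1.999 FPKM, or 131 to 170 reads. Syt10 entered the test only through KO, the group in which it is high, so its p is taken from the fit without a filter on low FPKM (adjusted p = 3.43e-07 from limma), and no fold is given. Syt12 rose from 1.66 ± 0.688 to 3.31 ± 0.627 FPKM (SD, n = 5; log2 fold change 0.73, adjusted p = 0.0171 from limma). Syt6, Syt8 and Syt15 were under 1 FPKM in both groups.

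The genes whose profile over the 10 libraries was most like that of Rph3a were Fam163a, Slc7a7, Lrrc55, Syt10 and Csf2rb (Pearson's r of 0.994 to 0.996). For Syt7 they were Aff1, Ptprt, Gltscr1l, Runx1t1 and Camk2n1 (r of 0.975 to 0.980). The FL and KO libraries form separate clusters for these genes, so the values of r describe mainly the gap between the groups.

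Proteins related by their C2 domains or their binding to Rab proteins were followed in a list of 12 genes, of which 10 were tested. Among these 2 were called lower and 1 higher, which is close to the 16.5% lower and 9.05% higher among all genes tested. Sytl4, which encodes granuphilin, a Rab27 effector that docks insulin granules, was at 230, 275, 247, 286 and 273 FPKM in FL and at 139, 180, 184, 127 and 132 FPKM in KO. Its groups did not overlap and its log2 fold change was −0.80 (adjusted p = 0.000597 from limma). Doc2b, a soluble calcium sensor of insulin release, fell from 2.18 ± 0.402 to 0.955 ± 0.350 FPKM (SD, n = 5). It passed the filter only through FL, and in the fit without a filter its adjusted p was 0.00827 from limma. Sytl3, another synaptotagmin-like Rab27 effector, rose from 1.42 ± 0.353 to 5.11 ± 1.15 FPKM (SD, n = 5; log2 fold change 1.33, adjusted p = 6.36e-05 from limma). Rph3al, which encodes the rabphilin relative Noc2 and was far more abundant than Rph3a, averaged 105 ± 3.63 in FL against 94.0 ± 7.87 FPKM in KO (SD, n = 5) and did not pass (adjusted p = 0.0631 from limma). The median log2 fold change of the list was −0.04.

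Of the 11 Rab proteins and effectors on a further list, 10 were tested, 1 was called lower and 2 higher, beside 16.5% and 9.05% of all genes tested. Of the GTPases that recruit rabphilin, Rab3a averaged 142 ± 12.6 in FL against 126 ± 8.38 FPKM in KO (SD, n = 5; adjusted p = 0.106 from limma), and Rab27a was at 112 ± 3.71 and 108 ± 9.72 FPKM (SD, n = 5; adjusted p = 0.456 from limma). Rab3c rose from 1.31 ± 0.212 to 3.05 ± 0.631 FPKM and Rab3d from 77.6 ± 4.37 to 91.7 ± 5.19 FPKM (SD, n = 5), with log2 fold changes of 0.80 and 0.24 (adjusted p = 0.000497 and 0.00882 from limma). Rab3d did not meet the required 1.5-fold change. Mlph, which encodes melanophilin, a Rab27 effector, fell from 4.36 ± 0.521 to 1.22 ± 0.234 FPKM (SD, n = 5; log2 fold change −1.27, adjusted p = 5.25e-06 from limma).

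The release machinery on which synaptotagmins act was covered by 17 genes. Of the 16 tested, 5 were lower and 0 were higher by limma (7 lower and 0 higher at an unadjusted p under 0.05), where 16.5% of all genes tested were lower and 9.05% higher. The median log2 fold change of the list was −0.16, against −0.06 over all genes tested. Cadps, a granule priming factor, fell from 43.9 ± 3.95 to 31.7 ± 2.98 FPKM (SD, n = 5; log2 fold change −0.45, adjusted p = 0.00214 from limma). Also called lower were Cplx2, Vamp3 and Stxbp2, with log2 fold changes of −0.24, −0.24 and −0.26 (adjusted p = 0.0121, 0.0147 and 0.0295 from limma). None of Cadps, Cplx2, Vamp3 and Stxbp2 met the required 1.5-fold change. Cplx2 was also lost with the replicate number as a block and Vamp3 after quantile normalization (adjusted p = 0.0505 from limma). Stxbp2 was lost after each of the 4 ways of rescaling, without a filter on low FPKM, and without FL mouse 1, FL mouse 3, KO mouse 3 or KO mouse 4 (adjusted p of 0.0529 to 0.115 in those fits, from limma). The SNARE genes Snap25 (90.9 ± 6.83 and 92.1 ± 9.34 FPKM) and Stx1a (6.91 ± 0.508 and 5.90 ± 1.20 FPKM in FL and KO; SD, n = 5) did not pass (adjusted p = 0.903 and 0.183 from limma).

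**Figure D5:**
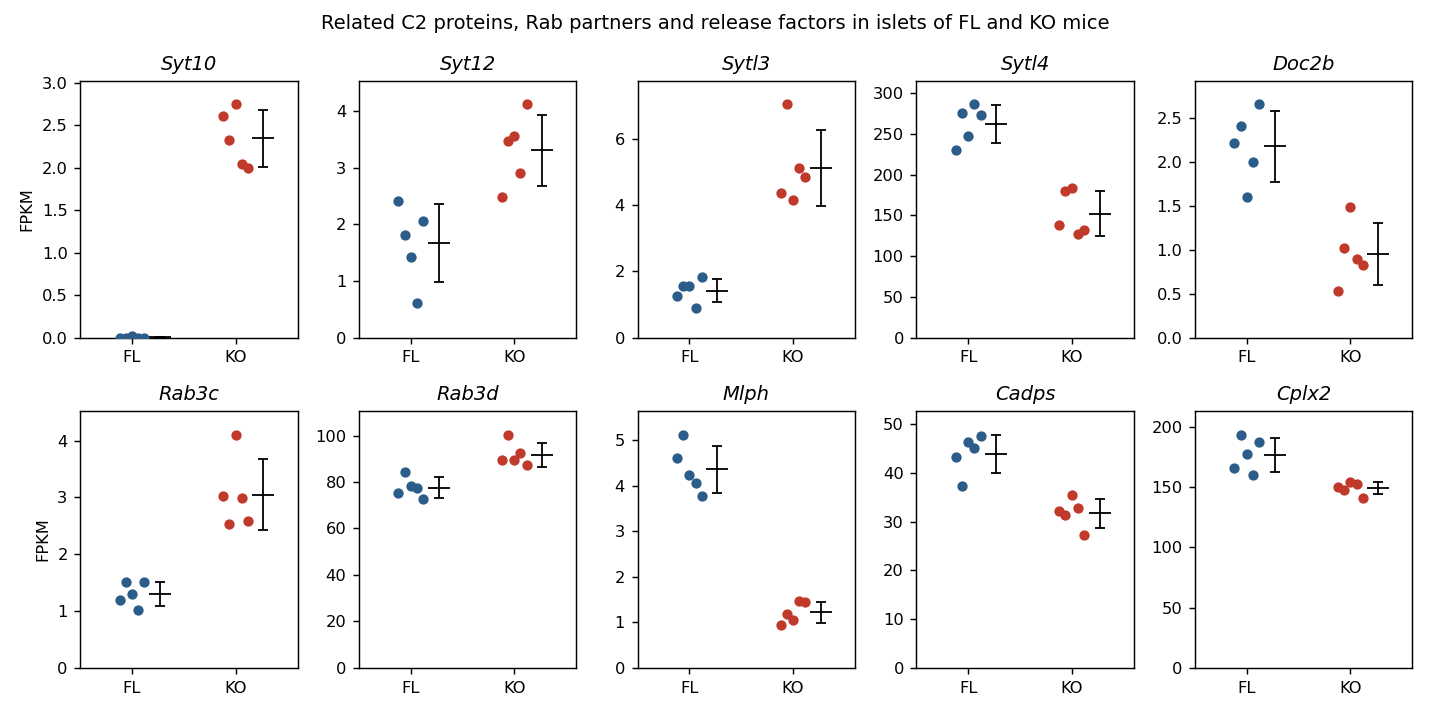
FPKM of 10 genes related to synaptotagmins and rabphilin in 5 FL (blue) and 5 KO (red) libraries, with the mean and SD as a black bar; each vertical axis starts at 0. Syt10, Syt12, Sytl3, Rab3c and Rab3d are higher and Sytl4, Doc2b, Mlph, Cadps and Cplx2 lower in KO, without overlap in any of the 10 panels. Only genes called by limma are shown, and most genes of the related lists overlapped between the groups. Among all genes tested, 19.1% did not overlap.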

How the data were processed

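Islet RNA of 5 FL and 5 KO mice was measured. The authors deposited 1 table of FPKM per gene with a column per mouse. The submitters' processing notes name STAR 2.5.2a, Cuffnorm 2.2.1 and mm10. The strand setting and annotation are not given in the sources used here. Values of log2(FPKM + 1) were fitted in limma 3.58.1 (R 4.3.3; trended eBayes, no covariates) for the 13065 genes averaging 1 FPKM or more in FL or KO, with Benjamini-Hochberg adjustment over all of them. Single genes were also compared by an exact two-sided permutation test. FPKM give no depth, but values of single-transcript genes of 3000 to 6000 nt move in steps of 1 read, of which 96.3% to 99.4% were whole within 0.15 of a read. Read equivalents use these steps and the longest transcript less 200 nt, and are approximate for genes with several transcripts. Replicate numbers did not pair the mice. By the naming rule all 10 members, every called gene of the lists and the 5 genes most like Rph3a and Syt7 could be named, and other genes (such as Rab3a, Rph3al and Snap25) were named for their role after their values had been seen. The members and lists were chosen with earlier results of these data known. Alternatives were other pseudocounts (0.1 and 0.01), filters, scalings, limma settings, a replicate block, a 1.5-fold threshold and leaving out each mouse. Counts for the release machinery include 1 gene whose result is not reported here. Coordinates are from GENCODE M21 and summaries were made with Python 3.11.15 and pandas 2.3.3.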

Additional observations from a re-analysis of the deposited data

Results flagged for a closer look

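In 46 groups of 5 mice (23 genes, each in FL and in KO), 4 groups had 1 mouse far from the other 4 (3 when Syt10, whose values are tied at 0, is left aside), and chance alone gives about 1 in 20 groups. For Syt5, FL mouse 4 was at 40.1 FPKM and the other FL mice were at 33.1 to 33.4 FPKM, so that the gap to the nearest mouse was 0.947 of the range of the group. The same mouse stood apart for Syt4, at 95.8 FPKM against 74.1 to 79.0 FPKM (a gap of 0.775 of the range), and for Syt14, at 21.7 FPKM against 18.0 to 19.0 FPKM (a gap of 0.721 of the range). Without FL mouse 4, Syt14 was still called and Syt5 was still not called. For Syt10, FL mouse 3 was at 0.0155 FPKM, the value of 1.00 read, and the other FL mice were listed at 0, so that the gap is 1.00 of the range by construction, whatever the size of the value, and is no sign of an unusual mouse.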

How the results depend on the processing

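The 10 members were compared again under up to 23 alternatives. Syt7 (log2 fold changes of −0.36 to −0.27), Syt14 (−0.43 to −0.32) and Rph3a (2.18 to 5.84, the upper values with small pseudocounts) kept their direction in all of them and their call in all except the required 1.5-fold change, which Syt7 (−0.34), Syt14 (−0.37) and Syt16 (0.31) did not meet on the log2(FPKM + 1) scale, which compresses the change of Syt16, whose ratio of means was 1.61. Syt9 and Syt13 were never called. Counting Syt16 and Rph3a, which passed the filter only through KO, 4 of 10 members were called, where 25.5% of all genes tested were. The count was 2 with a mean of at least 5 FPKM required, where 7 members were left to test, and 1 with the 1.5-fold change. Syt16 was lost after quantile normalization (log2 fold change 0.19) and with the replicate block (0.31, adjusted p = 0.105 from limma), and it ranged from 0.27 to 0.35 when single mice were left out and rose to 0.61 and 0.67 with pseudocounts of 0.1 and 0.01, still called. Syt11 was called with TPM (0.21), quantile (0.23), upper quartile (0.21) and median ratio (0.21) scaling, with sample weights (0.21) and without KO mouse 5, in a range of 0.13 to 0.21 over left-out mice. Syt5 was called with sample weights (−0.20) and in no other alternative, in a range of −0.21 to −0.12. The sign of Syt1, at −0.01, turned with median ratio (0.016), upper quartile (0.016), TPM (0.013) and sample weights (0.0038), and without single mice it ran from −0.11 to 0.058. Syt4 turned with sample weights (0.043) and ran from −0.12 to 0.0030 without single mice. The cause of these changes was not tested. The replicate numbers did not mark pairs, since the correlations of deviations at the same number were between −0.102 and 0.00305 and no FL mouse was most like the KO mouse of its own number. With the replicate block 2368 genes were called in place of 3333, and 3 members. The 13 related genes examined in the same way gave 294 further comparisons, of which 277 kept their direction and call, 17 lost the call and 0 changed direction. Of the lost calls 10 were of Stxbp2. Among the others were Vamp3 after quantile normalization and Cplx2 with the replicate block. Rab3d, Cadps, Cplx2 and Vamp3 were also lost with the 1.5-fold change. Depth limits Rph3a and Syt10 in FL, where a few reads or none set the value.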
